A study of Mus musculus with 3 samples.

Results

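Lymphatic endothelial cells of the mouse small intestine were divided by 10 genes into a Clca3a1 side and an Itih5 side. The division was chosen by values from these same cells. A cell was taken as lymphatic when it held at least 1 UMI (a counted RNA molecule) of Prox1, at least 5 of Lyve1, none of Ptprc or Epcam and at most 2 of Dcn. Sum A was the UMIs of Clca3a1, Serpine2, Fmo1, Pkhd1l1 and Stmn2, and sum B the UMIs of Itih5, Gpx3, AA467197, Chchd10 and Ltc4s. Cells with A of at least 3 and above B formed the Clca3a1 side, and cells with B of at least 4 and A of 0 the Itih5 side. Of 24541 barcodes, 22534 had 500 genes or more with mitochondrial UMIs of 15% or less, and 17975 of these were lymphatic. The Clca3a1 side held 4995 cells, the Itih5 side 4515, and 8465 lymphatic cells were on neither side.

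The series is a single-cell RNA sequencing study of endothelial cells from the small intestine, with 3 libraries that form 1 group. Per the labels, the cells came from wild-type C57Bl/6 females of 9 to 10 weeks, and each library was a pool of 4 animals. The gut without the duodenum was freed of epithelium with EDTA and DTT and digested for 60 minutes with Liberase TL and DNase I. Live, nuclear-stained CD45- CD31+ PDPN+ cells were sorted, per the series' design text, and made into 10x 3′ v3 libraries. Whether the same animals entered more than 1 library is unknown. The p-values therefore measure only how far the difference between the sides varied over these 3 libraries, and that spread may be technical. Both sides came from the same pools and were compared within each library.

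Lymphatic capillaries of the gut, among them the lacteals of the villi, take up interstitial fluid, leukocytes and absorbed fat, and pass them to collecting vessels that carry muscle and valves. Lymphatic endothelium is set up by the transcription factor PROX1, depends on VEGFR3 (encoded by Flt4), and draws dendritic cells and T cells in with CCL21. It also secretes signals for neighbouring cells, such as the R-spondin RSPO3. Clca3a1 belongs to the family of calcium-activated chloride channel regulators, Serpine2 encodes a protease inhibitor and Fmo1 a flavin-containing monooxygenase. Itih5 encodes a hyaluronan-binding matrix protein, Gpx3 a secreted glutathione peroxidase and Ltc4s leukotriene C4 synthase.

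Lymphatic markers outside the filter were found on both sides, and were not compared with other barcodes. The summed level of 5 detected markers (Flt4, Pdpn, Ccl21a, Reln and Sox18) lay between 13155 and 15240 CPM (UMIs of a gene scaled to all UMIs of the sum) on the Clca3a1 side and between 12699 and 15067 on the Itih5 side. A sixth, Mmrn1, had no UMI on either side. Ccl21a made up most of each sum, at 9739 to 11631 CPM on the Clca3a1 side and 9071 to 11449.5 on the Itih5 side. PDPN was also a marker of the sort. The summed level of 12 blood endothelial genes, mostly of Emcn, Podxl and Gpihbp1, was 1295 to 1413 CPM on the Clca3a1 side and 1199 to 1268 on the Itih5 side. Each library gave between 968 and 2073 cells a side, with 7599837 to 15284954 UMIs in each sum. Cells of the Itih5 side were deeper in every library, with medians of 8619, 7555.5 and 7264 UMIs against 7782, 7053 and 6717. Libraries shared 13 to 30 barcodes per pair, of which 2 were on the same side in both libraries. No doublet caller was run. Summed levels of marker genes of other cell types differed between the sides and between libraries. The summed level of 9 mural and smooth muscle genes ranged from 8.39 to 67.2 CPM on the Clca3a1 side and from 15.7 to 799 on the Itih5 side, and that of 7 B and plasma cell genes from 22.8 to 193 and from 29.4 to 1816. Both maxima of the Itih5 side were in library 2. In library 3 the B cell and plasma cell genes Igkc and Igha were higher on the Clca3a1 side, at 56.7 against 29.2 and 18.1 against 15.5 CPM. Without library 2 the median of the 3 B and plasma cell genes tested turned from -1.54 to 0.37, with 1 call on the Clca3a1 side and 0 on the Itih5 side. The 9 glial and neuronal markers summed to 16.9 CPM on the Clca3a1 side of library 3 and to between 4.76 and 6.23 in the other sums. All 9 mural genes were detected on both sides. Counts were therefore repeated without the 389 and 362 cells of the 2 sides that held at least 5 UMIs of another cell type's list or of 10 cell cycle genes, or at least 3 of 6 blood endothelial genes, a choice made after the data were seen. Library 2 held 287 and 227 of these cells, 20.2% and 23.5% of its 2 sides, against 2.46% to 4.40% in libraries 1 and 3. The epithelial list was met most often, by 185 and 149 cells, of which 164 and 124 were in library 2.

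Each gate gene was also described in cells placed by the other 9 genes. The values in this paragraph describe genes that the rule used, and carry no test. The genes were assigned to the sides with values from these same cells known, which favours a higher level on the assigned side. With cells placed by the other 9 genes, Clca3a1 stood at 186, 179 and 128 CPM on the Clca3a1 side of libraries 1 to 3 and at 9.49, 11.4 and 6.82 on the Itih5 side. Its mean was 164 ± 31.8 against 9.24 ± 2.31 CPM (SD, n = 3), 17.8 times higher. In the same way Pkhd1l1, which encodes a large receptor-like protein, was 23.4 times higher, Fmo1 16.2, Serpine2 7.36 and Stmn2, which encodes a microtubule-destabilising protein of neurons, 5.15 times higher. On the other side, Itih5 stood at 315, 282 and 332 CPM against 66.2, 49.3 and 67.7, a mean of 309 ± 25.2 against 61.1 ± 10.2 and 5.07 times higher. Gpx3 was 6.58, Chchd10 5.79, AA467197 5.22 and Ltc4s 3.13 times higher there. The sides did not overlap in any of the 10 genes, which the choice of the genes also favours. Clca3a1 lies on chromosome 3 (144729677 to 144760977, minus strand, GRCm38) and Itih5 on chromosome 2 (10153571 to 10256529, plus strand).

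**Figure D1:**
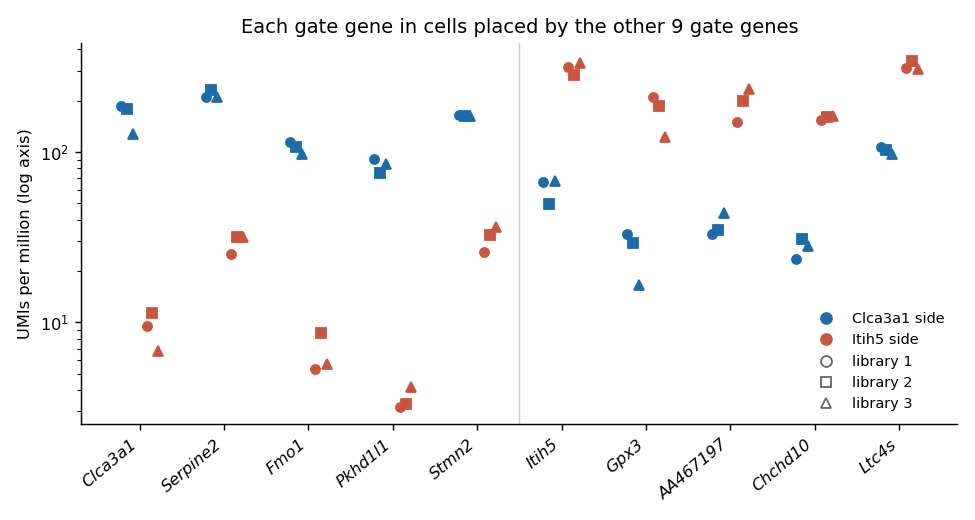
CPM (log axis) of each gate gene in each library, in cells placed on the Clca3a1 side (blue) or the Itih5 side (red) by the other 9 genes; marker shapes are the 3 libraries. The side a gene was assigned to is higher for all 10 genes, from 3.13 times for Ltc4s to 23.4 times for Pkhd1l1. The choice of the genes from these same cells favours this.

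Many lymphatic cells had gate sums between those of the 2 sides. Whether sampling of few UMIs or doublets placed cells there was not tested. In lymphatic cells thinned to 5000 UMIs each, the mean of sum B fell from 4.92, 4.67 and 4.52 UMIs per cell in the libraries at A of 0 to 0.734, 0.646 and 0.837 at A of 8 or more, with every step in between lower than the one before. Cells with A of at least 3 and B of at least 4 were 9.52%, 8.91% and 7.60% of lymphatic cells as deposited and 1.99%, 2.21% and 2.30% after thinning. The Clca3a1 side held 26.9% (95% exact binomial interval 25.8 to 28.1), 31.9% (30.6 to 33.3) and 26.1% of lymphatic cells, a mean of 28.3% ± 3.18, and the Itih5 side 25.1% ± 4.20 (SD, n = 3). The intervals cover counting error only. When cells were thinned before gating, which also left out cells under 5000 UMIs, the shares were 23.4% on the Clca3a1 side and 23.5% on the Itih5 side. The second moved by less than the spread between libraries. Cells just inside and just outside a threshold were compared without a test. Tgfbi was at 79.4 ± 9.43 CPM in cells with A of 3 and above B and at 67.9 ± 17.7 in cells with A of 2 and above B. Kcnj8 was at 150 ± 25.6 CPM in cells with A of 0 and B of 4 and at 143 ± 17.6 where B was 3. Ptgs2 was at 27.1 ± 10.1 CPM with B of 4 and at 8.53 ± 8.29 with B of 3 (SD, n = 3).

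**Figure D2:**
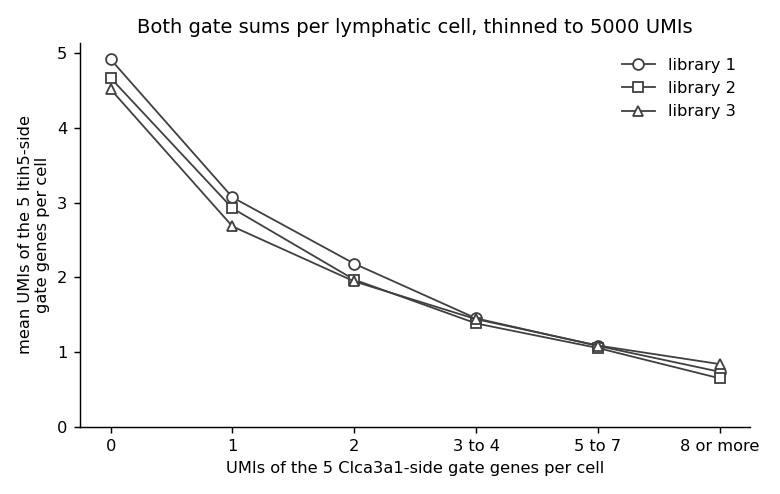
Mean UMIs per cell of the 5 Itih5-side gate genes (y axis) against the binned UMIs per cell of the 5 Clca3a1-side gate genes (x axis) in lymphatic cells thinned to 5000 UMIs, 1 line per library. The mean falls at each step, from between 4.52 and 4.92 to between 0.646 and 0.837.

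Outside the gate and filter genes, 12377 genes were tested between the sides over the 3 libraries (edgeR quasi-likelihood test, library as a block, Benjamini-Hochberg adjustment over all genes tested). At an adjusted p under 0.05, 4171 genes or 33.7% were called, 2028 (16.4%) higher on the Clca3a1 side and 2143 (17.3%) on the Itih5 side. Scaling by total UMIs in place of TMM changed that split to 1613 and 2643. Of the calls, 704 exceeded 1 on the log2 scale. Without the library as a block 2130 genes were called, and DESeq2 called 2151, all of them among the 4171. Without the cells that held genes of other types or of the cell cycle the count was 4170, of which 3811 were among the 4171. The sides were made from expression in the same cells, so a gene that goes along with a gate gene can be called for that alone.

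The comparison was repeated within cells under and over each library's median of Fos per UMI. Fos is an immediate early gene that tissue digestion can raise. In low-Fos cells 2965 of 11510 genes were called (25.8%), and in high-Fos cells 3397 of 11299 (30.1%). Without the block these counts were 1609 and 1711, and DESeq2 gave 1314 and 1577. Without library 3 the low-Fos count was 1860. Of 11185 genes tested in both, 2268 were called in both in the same direction, 78.7% of the low-Fos calls and 67.5% of the high-Fos calls, and 8 in opposite directions. The low-Fos and high-Fos cells were different cells of the same libraries. Fos itself stood at 5949, 4523 and 5976 CPM on the Clca3a1 side and 6020, 4490 and 4943 on the Itih5 side, so the sides overlapped (log2 difference 0.13 ± 0.05, adjusted p = 0.0552). It passed in 8 of 16 alternatives, at 0.20 without library 1, and was at 0.035 without library 3 (adjusted p = 0.537). Throughout, log2 differences are of the Clca3a1 side over the Itih5 side, with an approximate standard error.

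**Figure D3:**
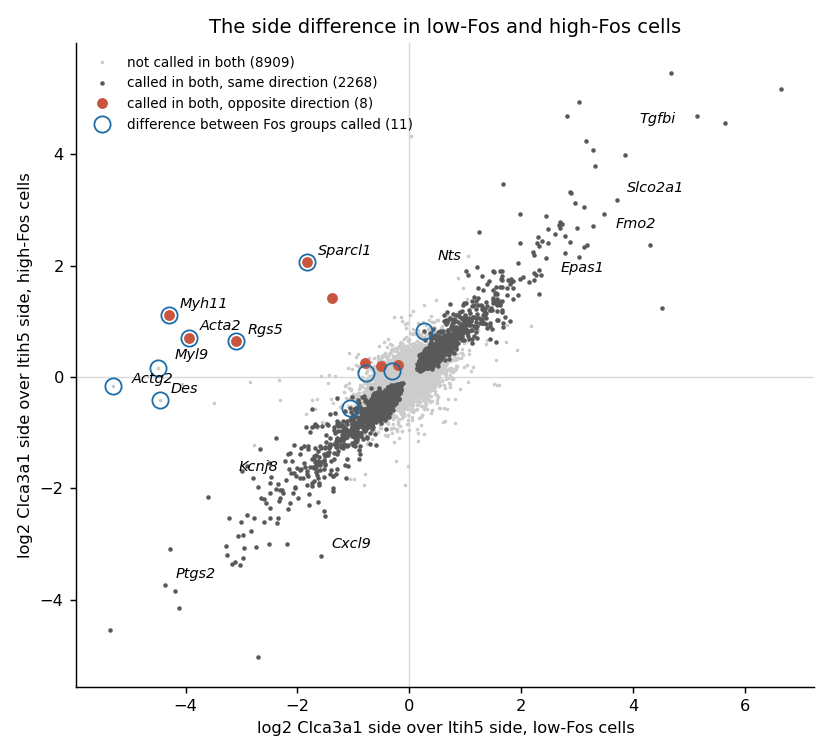
Log2 difference between the sides of each gene in low-Fos cells (x axis) and high-Fos cells (y axis); dark points are the 2268 genes called in both in the same direction, red points the 8 called in opposite directions, and open circles the 11 genes whose difference differed between the Fos groups. The leading genes, described below, were chosen among genes called in both groups in the same direction, so their agreement in direction is built in. Muscle genes such as Myh11 and Acta2 lie off the diagonal.

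Genes of prostaglandin handling stood at both ends of the comparison, so their promoters are shown first. Slco2a1 encodes a transporter that takes up prostaglandins, and Ptgs2 encodes cyclooxygenase 2, the inducible enzyme that starts prostaglandin synthesis. Kcnj8 and Abcc9, neighbours on chromosome 6, encode the pore and the regulatory subunit of an ATP-sensitive potassium channel and moved together. The windows run from 250 bases before to 50 after each RefSeq start site (GRCm38.p6, 1 entry for each of these 4 genes), in the direction of the gene. Slco2a1 lies at chr9:103008237-103008536 (plus strand), Ptgs2 at chr1:150099781-150100080 (plus strand), Kcnj8 at chr6:142571565-142571864 (minus strand) and Abcc9 at chr6:142702225-142702524 (minus strand). Capitals mark ACGTG and TGACG, searched on both strands. ACGTG is 1 form of the core of the hypoxia response element, which the product of Epas1 binds. TGACG is a core of the cAMP response element. Other forms, such as GCGTG for the hypoxia element, were not searched or marked. Read on the other strand, ACGTG appears as CACGT, and likewise TGACG appears as CGTCA.

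Slco2a1: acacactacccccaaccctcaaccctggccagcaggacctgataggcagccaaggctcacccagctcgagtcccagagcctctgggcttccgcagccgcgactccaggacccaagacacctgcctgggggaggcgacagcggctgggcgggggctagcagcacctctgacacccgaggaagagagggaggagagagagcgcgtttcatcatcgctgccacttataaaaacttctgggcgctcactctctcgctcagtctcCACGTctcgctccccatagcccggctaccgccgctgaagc
Ptgs2: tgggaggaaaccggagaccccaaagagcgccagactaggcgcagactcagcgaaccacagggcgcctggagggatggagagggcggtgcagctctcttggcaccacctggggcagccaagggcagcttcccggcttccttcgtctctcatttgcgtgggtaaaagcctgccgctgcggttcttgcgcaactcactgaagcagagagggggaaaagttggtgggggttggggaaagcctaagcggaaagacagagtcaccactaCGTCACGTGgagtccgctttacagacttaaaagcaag
Kcnj8: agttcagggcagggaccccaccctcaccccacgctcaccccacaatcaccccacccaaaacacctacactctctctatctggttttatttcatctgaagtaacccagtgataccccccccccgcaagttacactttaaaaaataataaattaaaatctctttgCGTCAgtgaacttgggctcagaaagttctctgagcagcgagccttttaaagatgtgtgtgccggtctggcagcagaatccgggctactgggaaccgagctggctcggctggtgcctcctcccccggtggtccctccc
Abcc9: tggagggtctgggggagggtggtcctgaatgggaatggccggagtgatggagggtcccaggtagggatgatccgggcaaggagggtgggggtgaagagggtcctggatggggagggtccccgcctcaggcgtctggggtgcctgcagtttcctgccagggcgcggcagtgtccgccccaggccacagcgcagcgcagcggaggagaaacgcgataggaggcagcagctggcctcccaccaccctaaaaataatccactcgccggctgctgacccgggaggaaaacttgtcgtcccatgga

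Slco2a1 held 1 match to ACGTG, Ptgs2 2 overlapping ones on the 2 strands, and Kcnj8 and Abcc9 none. TGACG had 1 match in Ptgs2, which overlaps the ACGTG matches there, 1 in Kcnj8 and none in Slco2a1 or Abcc9. Of 32851 promoter windows of this length, 19.6% held ACGTG and 20.8% TGACG. The letters ACGTG were thus found in a gene of each side. A match describes letters in a window and is not a measured binding site.

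Slco2a1 stood at 36.9, 47.8 and 24.5 CPM on the Clca3a1 side and at 3.22, 3.95 and 2.96 on the Itih5 side. It was higher on the Clca3a1 side by 3.43 ± 0.11 on the log2 scale (adjusted p = 9.08e-11), by 3.71 in low-Fos and 3.19 in high-Fos cells. Ptgs2 stood at 1.77, 1.78 and 2.55 CPM on the Clca3a1 side and at 51.9, 15.5 and 22.6 on the Itih5 side, a log2 difference of -3.78 ± 0.21 (adjusted p = 9.95e-09). The sides did not overlap in either gene, and library 1 had the highest Ptgs2 level. Of 11 prostanoid and leukotriene genes tested, 5 were higher on the Clca3a1 side and 3 on the Itih5 side (3 and 2 without the block). Ptges, which makes prostaglandin E2, was higher on the Clca3a1 side (0.75 ± 0.09), as was Alox5ap, the 5-lipoxygenase activating protein (0.83 ± 0.17). Ptger2, a prostaglandin E2 receptor, was higher on the Itih5 side (-0.64 ± 0.10). The median of the list was 0.11, against 0.00 over all genes tested (-0.000375). Ltc4s was a gate gene.

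Kcnj8 stood at 53.8, 50.5 and 56.3 CPM on the Clca3a1 side and 209, 202 and 197 on the Itih5 side (log2 difference -1.87 ± 0.05, adjusted p = 3.34e-11). Abcc9 stood at 14.4, 10.7 and 11.4 CPM against 55.0, 47.9 and 51.6 (-2.03 ± 0.07, adjusted p = 1.34e-10). Both subunits were higher on the Itih5 side in all 3 libraries, without overlap, and in both Fos groups. Of 29 channel and transport genes tested, 12 were higher on the Itih5 side and 5 on the Clca3a1 side (9 and 2 without the block, median -0.07). The water channel gene Aqp1 was at 2926, 2700 and 2621 CPM on the Itih5 side against 1388, 1319 and 1339 (-0.98 ± 0.04), and Kcnn3, a calcium-activated potassium channel gene, differed by -0.58 ± 0.04. Clic5 was higher on the Clca3a1 side by 0.28 ± 0.05, with overlap between the sides.

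The leading genes of each side were the 12 largest differences among genes called in all cells and in both Fos groups, with 1 sign in these 3 fits and in each library's sum over all cells, and at least 20 CPM on the higher side. On the Clca3a1 side these were Tgfbi, Slco2a1, Fmo2, Chp2, Cyfip2, Slc8a1, Rassf10, Flrt2, Rasgrf2, Epas1, Postn and Cmah. On the Itih5 side they were Ptgs2, Thrsp, Basp1, Lrrn2, Ltb, Acod1, Stab2, Top2a, Rasa4, Nav3, Cyp1a1 and Cxcl9. None of the 24 genes overlapped between the sides. The choice of large differences with the same sign in each library favours this, and the share without overlap over all genes tested was not counted. Of the 24 calls, 23 held in every one of the 16 alternative analyses. The exception was Top2a, which encodes topoisomerase II alpha of dividing cells: its difference of -2.33 ± 0.34 became -0.29 without the cells that held genes of other types or of the cell cycle, and -3.65 without library 1.

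**Figure D4:**
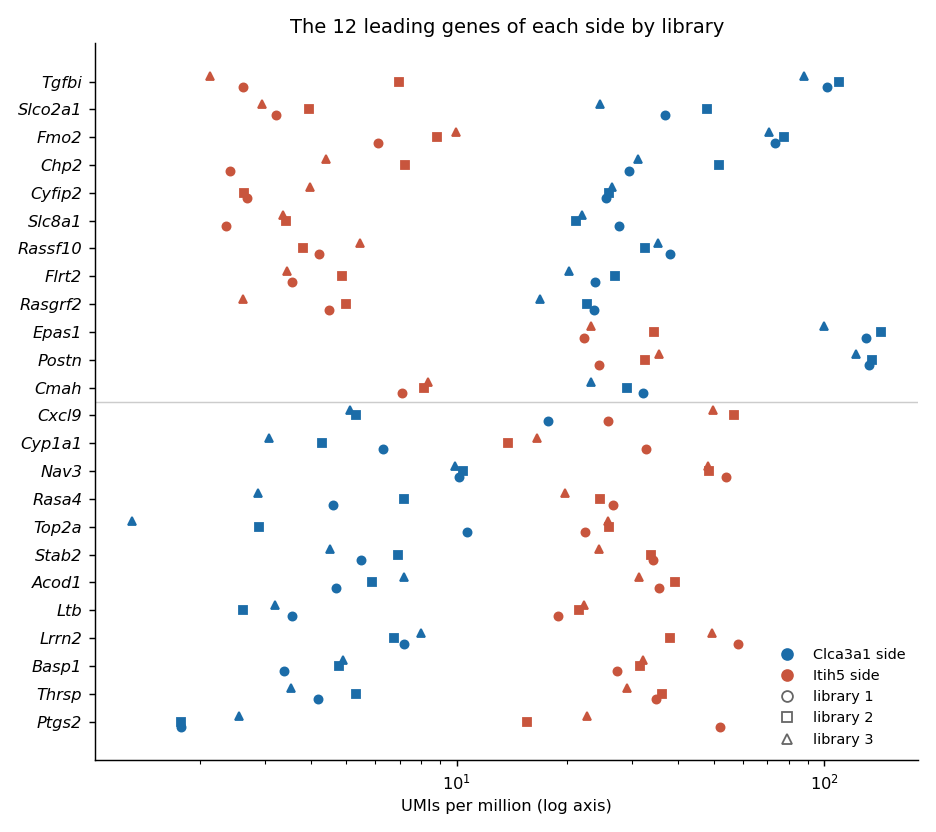
CPM (log axis) of the 12 leading genes of each side, on the Clca3a1 side (blue) and the Itih5 side (red), in libraries 1 to 3 (marker shapes). No gene overlaps between the sides, which the choice of the genes favours. The sides come closest in Cxcl9, where library 1 has 17.7 and 25.8 CPM.

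Tgfbi, a secreted matrix protein induced by TGF-beta, had the largest difference of the 24. It stood at 102, 110 and 87.9 CPM on the Clca3a1 side and at 2.61, 6.97 and 2.13 on the Itih5 side (4.90 ± 0.14, adjusted p = 4.63e-11), with 5.14 in low-Fos and 4.69 in high-Fos cells. Fmo2, a flavin-containing monooxygenase next to the gate gene Fmo1 on chromosome 1 (162874317 to 162898726, and 162829561 to 162866610), stood at 73.3, 77.6 and 70.7 against 6.1, 8.82 and 9.97 CPM (3.20 ± 0.10). Epas1, which encodes the hypoxia-inducible factor HIF-2 alpha, stood at 130, 143 and 99.6 against 22.2, 34.3 and 23.2 CPM (2.29 ± 0.08, adjusted p = 9.30e-11). Signalling and ion handling genes were among the rest. Slc8a1, the sodium-calcium exchanger, differed by 3.04 ± 0.15, Chp2, a calcium-binding cofactor of sodium-proton exchangers, by 3.09 ± 0.12, and Rasgrf2, an exchange factor for Ras, by 2.46 ± 0.12. Cyfip2, a subunit of the actin-regulating WAVE complex, stood at 25.4, 26.0 and 26.4 against 2.68, 2.63 and 3.99 CPM. Postn, the matrix protein periostin, differed by 2.12 ± 0.09 and Flrt2, a guidance and adhesion receptor, by 2.64 ± 0.11.

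On the Itih5 side, Basp1, a membrane protein known from growing axons, stood at 27.4, 31.6 and 32.0 CPM against 3.39, 4.76 and 4.91 on the Clca3a1 side (-2.75 ± 0.10, adjusted p = 2.13e-10). Acod1, the enzyme that makes itaconate and is best known from activated macrophages, stood at 35.4, 39.2 and 31.4 against 4.68, 5.89 and 7.2 CPM (-2.50 ± 0.13). The summed level of 10 macrophage and dendritic cell markers was 10.2 to 36.7 CPM on the Itih5 side and 5.16 to 32.5 on the Clca3a1 side. Stab2, a scavenger receptor for hyaluronan, stood at 34.2, 33.8 and 24.4 against 5.48, 6.91 and 4.51 CPM (-2.41 ± 0.10). Ltb, lymphotoxin beta, differed by -2.68 ± 0.13, and Thrsp, a regulator of lipid synthesis, by -2.91 ± 0.10. Cyp1a1, a target of the aryl hydrocarbon receptor, stood at 32.6, 13.8 and 16.5 against 6.29, 4.30 and 3.07 CPM. Nav3, a neuron navigator gene, stood at 54.0, 48.7 and 48.3 against 10.2, 10.4 and 9.88 CPM.

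Gene lists were described by their counts against the 16.4% and 17.3% called in each direction over all genes. The fit without the library block called fewer of them by more than 1.5 times in 19 of 33 lists, and its counts are given in brackets where that is so. All lists but the nuclear genes of oxidative phosphorylation (30.3%) had more calls in either direction than the 33.7% over all genes. A share above that of all genes thus does not set a list apart. Of 12 markers of collecting vessels and valves tested, 9 were higher on the Clca3a1 side and 2 on the Itih5 side, with a median of 0.68. Foxp2 stood at 71.1, 64.8 and 66.1 CPM against 20.7, 23.8 and 23.4 (1.63 ± 0.07). Cldn11, a tight junction gene of valves, differed by 1.30 ± 0.09, Gata2 by 0.71 ± 0.07 and Foxc2, a regulator of valve formation, by 0.66 ± 0.09, each without overlap. Nfatc1 differed by 0.22 ± 0.06 with overlapping sides (0.33 without library 1) and was called in low-Fos cells (0.40 ± 0.07) but not in high-Fos cells (0.06 ± 0.06), a difference between the groups that did not pass its own test. The members higher on the Itih5 side were Itga9, the integrin of valve leaflets (-0.47 ± 0.04), and Gja4, connexin 37 (-0.40 ± 0.05). Both are established valve genes, so the list did not move as a whole.

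Of 11 lymphatic capillary markers tested, 4 were higher on the Clca3a1 side and 5 on the Itih5 side (median -0.09). Without library 2, 2 were higher on the Clca3a1 side. Mrc1, the mannose receptor, was at a mean of 172 CPM on the Clca3a1 side and 378 on the Itih5 side (-1.09 ± 0.04), Nrp2, the co-receptor of VEGFR3, at 958 and 1795 (-0.87 ± 0.04), and Ptx3 at 9.63 and 28.3 (-1.51 ± 0.09). The tetraspanin gene Cd9 was higher on the Clca3a1 side, at 1187, 1213 and 1263 CPM against 683, 734 and 683 (0.85 ± 0.04). Pan-lymphatic genes were nearly level. Pdpn stood at 267, 250 and 241 CPM against 253, 250 and 246 (0.06 ± 0.04, adjusted p = 0.296), and Flt4 at 1564, 1482 and 1353 against 1726, 1577 and 1535 (-0.09 ± 0.04, adjusted p = 0.0638, past the threshold in 6 of 16 alternatives). Ccl21a was called at 0.13 ± 0.03 and Reln at 0.12 ± 0.04, with overlapping sides, and neither passed in high-Fos cells (adjusted p = 0.201 and 0.156). The Ccl21a call was lost without library 2, and that of Reln without library 1 or library 2. Lyve1, a filter gene and so without a test, stood at 5381, 4678 and 4265 CPM on the Clca3a1 side and 4229, 3644 and 3441 on the Itih5 side. Ackr4 had no UMI on the Clca3a1 side and was 0.067, 0.395 and 0.275 CPM on the Itih5 side.

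**Figure D5:**
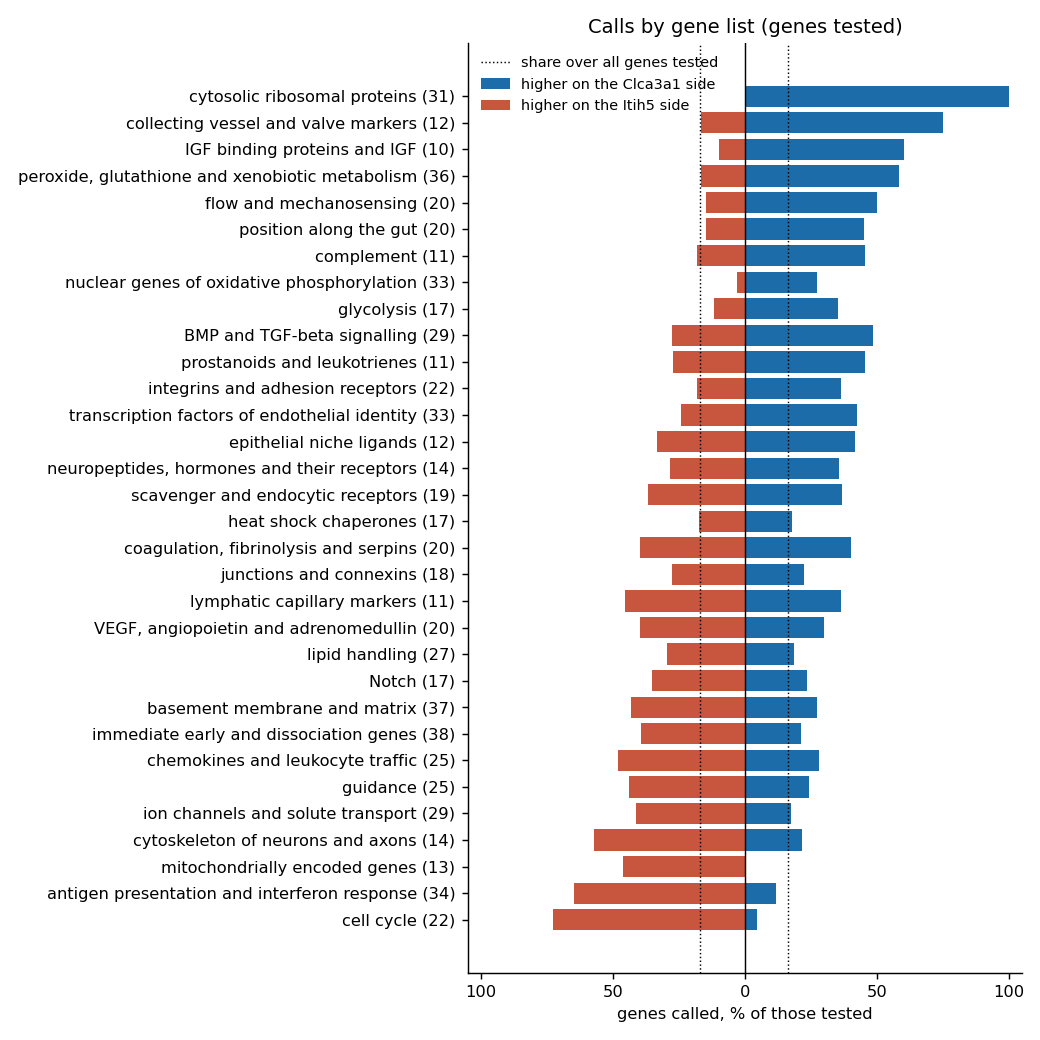
Percent of the tested genes of each list that were called higher on the Clca3a1 side (blue, right) or the Itih5 side (red, left), for lists with at least 10 tested genes (number in brackets); dotted lines are the shares over all genes tested, 16.4% and 17.3%. Ribosomal protein genes and collecting vessel markers lie at the Clca3a1 end, antigen presentation and cell cycle genes at the Itih5 end. Nearly all lists had a larger share called in either direction than all genes together.

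Transcription factors of endothelial identity went both ways, with 14 of 33 higher on the Clca3a1 side and 8 on the Itih5 side (median -0.06). Beside Epas1, Foxp2 and Gata2, Foxc1 was higher on the Clca3a1 side (0.81 ± 0.07), and Gata6 stood at a mean of 4.00 against 0.581 CPM (2.77 ± 0.31). Bcl6b, an endothelial repressor, stood at 175, 154 and 152 CPM on the Itih5 side against 92.4, 76.9 and 71.1 (-0.96 ± 0.05). Genes that mark position along the gut also differed, with 9 of 20 higher on the Clca3a1 side and 3 on the Itih5 side (4 and 0 without the block, median 0.21). Hoxd9 stood at 59.3, 62.4 and 47.2 against 41.2, 37.0 and 26.2 CPM (0.74 ± 0.07), while Hoxa5 differed by -0.37 ± 0.08 with overlapping sides (-0.24 without library 1).

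Of 34 antigen presentation and interferon genes, all tested, 22 were higher on the Itih5 side and 4 on the Clca3a1 side, with a median of -0.30. Without the library block 4 and 0 were called, with the same median, and without library 3, 2 were higher on the Clca3a1 side. Cd74 encodes a chaperone of MHC class II molecules. It stood at 113, 358 and 192 CPM on the Itih5 side against 31.9, 149 and 95.8 (-1.27 ± 0.10, adjusted p = 3.09e-07): it was higher in each library, but the libraries differed so much that the sides overlapped. Differences of the class I genes were small, with -0.30 ± 0.04 for H2-K1 and -0.27 ± 0.04 for B2m. Ifit1 (0.29) and Ifit3 (0.19), both classical interferon targets, were higher on the Clca3a1 side. B and macrophage RNA also carry class II genes, and their list levels are given above. The part of such RNA in the Cd74 difference was not tested. Over the whole list, of class II and other genes, 23 were higher on the Itih5 side and 4 on the Clca3a1 side without the cells that held genes of other types or of the cell cycle.

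Of 25 genes of chemokines and leukocyte traffic, 12 were higher on the Itih5 side and 7 on the Clca3a1 side (6 and 4 without the block, median -0.24). Cxcl9, Cxcl10 and Ccl2, inflammatory chemokines, were higher on the Itih5 side. Cxcl9, which draws T cells through CXCR3, stood at 25.8, 56.8 and 49.9 CPM against 17.7, 5.33 and 5.10 (-2.15 ± 0.35, adjusted p = 2.49e-04), with the smallest gap in library 1 (-3.28 without it). It differed by -1.58 ± 0.54 in low-Fos and by -3.21 ± 0.16 in high-Fos cells, a change with Fos that was not called (adjusted p = 0.851). In low-Fos cells of library 1 it was higher on the Clca3a1 side, at 34.9 against 20.5 CPM. Cxcl10 was at a mean of 110 against 28.8 CPM (-1.84 ± 0.11) and Ccl2, which draws monocytes, at 197 against 51.2 (-1.88 ± 0.11). On the Clca3a1 side were Il7, Ackr3, Ackr2 and Spns2. Il7, a survival factor of lymphocytes, stood at 203, 196 and 201 CPM against 124, 130 and 131 (0.69 ± 0.04). The chemokine scavengers Ackr3 and Ackr2 differed by 0.60 ± 0.04 and 0.47 ± 0.06, and Spns2, the exporter of sphingosine-1-phosphate, by 0.46 ± 0.05.

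Enzymes of peroxide, glutathione and xenobiotic metabolism leaned to the Clca3a1 side, with 21 of 36 tested genes higher there and 6 on the Itih5 side (11 and 4 without the block, median 0.24). The glutathione transferase Gstm1 was at a mean of 217 CPM on the Clca3a1 side and 66.1 on the Itih5 side (1.76 ± 0.05), Mgst1 at 70.3 and 31.0 (1.22 ± 0.05), and the epoxide hydrolase Ephx1 at 146 and 62.2 (1.28 ± 0.05). Aldh2, an aldehyde dehydrogenase, differed by 0.83 ± 0.05. Cyp1a1 went the other way. Cyp1b1, another target of the same receptor, was also higher on the Itih5 side (-0.56). Fmo1 and Gpx3 were gate genes and are left out of these counts.

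Of 37 matrix genes, 10 were higher on the Clca3a1 side and 16 on the Itih5 side (median -0.21). Beside Tgfbi and Postn, the Clca3a1 side had more Bgn, biglycan (1.42 ± 0.09), and the elastic fibre genes Eln (0.79 ± 0.06) and Fbln5 (0.68 ± 0.08). Genes of basement membrane proteins went both ways: Hspg2, perlecan, differed by -0.60 ± 0.05 and Col4a1 by -0.21 ± 0.04, while Col18a1 differed by 0.33 and the laminin gene Lamb1 by 0.34. Emilin1, which anchors lymphatic endothelium to elastic fibres, was at a mean of 282 CPM on the Itih5 side and 137 on the Clca3a1 side (-1.0 ± 0.04), and Mmp14, a membrane-bound collagenase, stood at 154, 125 and 133 against 56.3, 44.2 and 49.3 (-1.41 ± 0.05). Plat, tissue plasminogen activator, stood at 23.2, 20.8 and 16.2 CPM on the Clca3a1 side against 6.97, 4.61 and 5.23, without overlap. Of 20 coagulation and fibrinolysis genes, 8 were higher on each side (median 0.02).

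Secreted growth factors divided member by member. Of 29 genes of BMP and TGF-beta signalling, 14 were higher on the Clca3a1 side and 8 on the Itih5 side (median 0.10). Bmp4 was at a mean of 10.7 CPM on the Clca3a1 side and 0.799 on the Itih5 side (3.92 ± 0.22), while Bmp2 was at 2.78 and 7.76 (-1.42 ± 0.17). Id3, a target of BMP signalling, differed by 0.95 ± 0.05, and Fstl1, a secreted BMP antagonist, stood at 172, 172 and 170 against 58.2, 63.9 and 61.8 CPM (1.53 ± 0.05). Of 10 IGF genes, 6 were higher on the Clca3a1 side and 1 on the Itih5 side (median 0.46). Igfbp5 stood at 1431, 1165 and 1005 CPM on the Clca3a1 side against 432, 541 and 467, while Igfbp4 went the other way, at 840, 802 and 884 on the Itih5 side against 488, 512 and 499. Of 20 genes of the VEGF, angiopoietin and adrenomedullin systems, 6 were higher on the Clca3a1 side and 8 on the Itih5 side (median -0.05). Pgf, placental growth factor, stood at 202, 188 and 216 CPM on the Itih5 side against 76.2, 53.9 and 94.8, and Angpt2 differed by -0.88 ± 0.05. Vegfc had few UMIs, at 0.807, 2.62 and 1.11 CPM on the Clca3a1 side and 0.335, 0.132 and 0.0688 on the Itih5 side, and was not tested within the Fos groups.

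The neuropeptide gene Nts, neurotensin, stood at 143, 132 and 161 CPM on the Clca3a1 side against 56.1, 33.7 and 38.2 (1.81 ± 0.11), with 1.22 ± 0.13 in low-Fos and 1.97 ± 0.07 in high-Fos cells; that change with Fos was not called (adjusted p = 0.222). Of 25 guidance genes, 6 were higher on the Clca3a1 side and 11 on the Itih5 side (median -0.17). The semaphorin receptor Plxnd1 stood at 204, 165 and 171 CPM on the Itih5 side against 67.3, 54.0 and 54.6 (-1.57 ± 0.05), and the netrin receptor Unc5b differed by -1.01 ± 0.05. Efnb2, the ephrin of valves and arteries, was higher on the Clca3a1 side (1.22 ± 0.05), as was Sema4d (1.44 ± 0.10). Fatty acid genes parted too: the uptake receptor Cd36 stood at 69.0, 71.6 and 51.4 CPM on the Clca3a1 side against 28.5, 24.3 and 25.4 (1.30 ± 0.08), and the binding protein Fabp4 at 758, 738 and 661 on the Itih5 side against 361, 423 and 332 (-0.91 ± 0.05). In all, 5 of 27 lipid genes were higher on the Clca3a1 side and 8 on the Itih5 side (median -0.02).

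Rspo3 stood at 296, 290 and 297 CPM on the Clca3a1 side and 307, 321 and 301 on the Itih5 side, a difference of -0.03 ± 0.04 (adjusted p = 0.656). Of 12 niche ligands tested, 5 were higher on the Clca3a1 side and 4 on the Itih5 side (3 and 2 without the block, median 0.06). Wnt2 was called at -0.14 ± 0.04, but in neither Fos group, and the call was lost in 6 of 16 alternatives, among them leaving out library 2 or library 3. Il33, an alarmin, differed by 0.15 ± 0.04 with overlapping sides, and its call was lost without library 2. Larger differences were seen in ligands of low level: Wnt5a was at a mean of 8.33 CPM on the Clca3a1 side and 1.32 on the Itih5 side, and Hgf at 6.68 and 1.11.

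All 31 cytosolic ribosomal protein genes tested were higher on the Clca3a1 side, in all cells and in both Fos groups, by a median of 0.40 (0.25 to 0.60). The 31 calls held under the 3 scalings (TMM, RLE and total UMIs), where the median ranged from 0.35 to 0.40, and 17 were called without the library block. Ribosomal protein genes have many processed copies in the genome, and no source used here states how reads shared with such copies were counted. Of 13 mitochondrially encoded genes, 6 were higher on the Itih5 side and 0 on the Clca3a1 side (1 and 0 without the block, 3 on the Itih5 side without library 2). Of 33 nuclear genes of oxidative phosphorylation, 9 were higher on the Clca3a1 side and 1 on the Itih5 side, and 1 and 0 without the block. Median mitochondrial shares were 2.0%, 1.77% and 1.88% of UMIs on the Itih5 side and 1.82%, 1.66% and 1.74% on the Clca3a1 side. The part of RNA quality in these shifts was not tested. With cells thinned to 5000 UMIs the list had 31 calls and a median of 0.42 after gating, and 31 and 0.43 before gating.

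The list of immediate early and dissociation genes had 38 members, all tested: the Itih5 side was higher in 15 and the Clca3a1 side in 8 (5 and 5 without the block, median -0.06). Egr1 was at a mean of 4760 CPM on the Itih5 side and 3648 on the Clca3a1 side (-0.34 ± 0.05), Nr4a1 at 223 and 111 (-0.95 ± 0.08) and Nr4a3 at 27.9 and 10.9 (-1.29 ± 0.10). Gadd45g, a stress-response gene, went the other way, at 132, 119 and 162 CPM on the Clca3a1 side against 69.8, 59.3 and 70.4. Leaving out library 1 raised the number higher on the Clca3a1 side from 8 to 13. The flow-response gene Klf2 was not called in all cells. It stood at 1846, 966 and 1369 CPM against 1937, 962 and 1177 (0.10 ± 0.05, adjusted p = 0.172). It was called at 0.17 without library 1 (adjusted p = 2.88e-04) and was at 0.0048 without library 3. In low-Fos cells it was called at 0.22 ± 0.06 (adjusted p = 0.0131). The chaperone gene Hspa5 was at 2577, 2445 and 2489 CPM on the Itih5 side against 1650, 1769 and 1957 (-0.44 ± 0.05).

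Of 22 cell cycle genes, 16 were higher on the Itih5 side and 1, the cyclin kinase inhibitor gene Cdkn1c (1.16 ± 0.07), on the Clca3a1 side. The list median was -1.32. DESeq2 called 9 and the fit without the block 10 on the Itih5 side. Few cells carried these RNAs: cells with at least 5 UMIs of 10 cycling genes numbered 11, 3 and 2 on the Clca3a1 side and 20, 17 and 27 on the Itih5 side, 0.320% and 1.42% of all cells of each side. Without these cells and those with genes of other types, 2 of 15 tested genes were higher on the Itih5 side. Ccnd2, cyclin D2, was at a mean of 485 CPM on the Itih5 side and 201 on the Clca3a1 side (-1.22 ± 0.04). In a sum over cells, fewer cells with a gene and less RNA of it per cell cannot be told apart.

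Among markers of other cell types, 7 of 8 mural genes tested were called, all higher on the Itih5 side, at a list median of -3.06. The fit without the block called none of them, and none was called in both Fos groups in the same direction. Acta2, smooth muscle actin, stood at 4.36, 209 and 48.5 CPM there against 2.98, 22.5 and 9.09. Cells with at least 5 mural UMIs numbered 16 on the Clca3a1 side and 22 on the Itih5 side. The blood endothelial genes Flt1 and Ly6c1 were called on the Clca3a1 side (3.37 ± 0.37 and 4.11 ± 0.35) but not in both Fos groups, at means of 7.51 and 6.97 CPM, and Plvap was not called (adjusted p = 0.131). These means rest mostly on library 2: Flt1 stood at 2.34, 17.2 and 3.01 CPM there against 0.134, 0.789 and 0.825 on the Itih5 side. Ly6c1 stood at 0.323, 16.7 and 3.86 against 0.067, 1.18 and 0.0688 CPM. In all, 8 blood endothelial genes were tested, of which 4 were higher on the Clca3a1 side and 1 on the Itih5 side (7 and 1 without library 1, 6 and 2 without library 3). Emcn, endomucin, was called at 710, 666 and 672 CPM on the Clca3a1 side against 505, 496 and 495. Gpihbp1, which anchors lipoprotein lipase, went the other way, at 268, 279 and 271 against 392, 344 and 373 CPM. Both were called in both Fos groups. Kit was called on the Itih5 side in both Fos groups, at a mean of 12 against 0.939 CPM, while the mast cell genes Cpa3, Mcpt1, Mcpt4 and Tpsb2 had no UMI on either side.

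Whether the side difference itself depended on Fos was tested as an interaction over 11850 genes. The test called 11 genes, or 0.0928%, and all 11 moved toward the Clca3a1 side in high-Fos cells. Acta2, Actg2, Des, Myh11, Myl9, Rgs5 and Sparcl1 are genes of smooth muscle, pericytes or stroma. Myh11, smooth muscle myosin, differed between the sides by -4.30 ± 0.23 in low-Fos and 1.11 ± 0.31 in high-Fos cells. With the deepest 10% of barcodes of each library left out, 2 of the 11 genes were called, Midn and Sbno2. Leaving out library 2, which held most of the mural RNA, kept Myh11 and Rgs5 of 2 called genes, and leaving out library 3 kept Myh11 of 4. Leaving out library 1 gave 50 genes, 9 of the 11 among them. Acta2, Myh11 and Sparcl1 turned to the Clca3a1 side in all cells without the deepest barcodes, at 0.14, 0.55 and 0.51. Without a block, edgeR called none (294 genes at an unadjusted p under 0.05), and DESeq2 none (191 genes), against 701 genes at that level in the blocked fit. Sema4c, a semaphorin, was higher on the Itih5 side in both Fos groups, by -1.06 ± 0.06 and -0.56 ± 0.06. Sbno2 was higher on the Clca3a1 side in both, by 0.27 ± 0.06 and 0.83 ± 0.06. Midn and Rnf122 were called in low-Fos cells (-0.31 ± 0.07 and -0.76 ± 0.11) but not in high-Fos cells.

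In most leading genes, the class means of lymphatic cells outside both sides lay between those of the 2 sides. They were sorted by their gate sums into 4 classes: A above B with A of 1 or 2, A equal to B, B above A with A of at least 1, and B of 1 to 3 with A of 0. In 17 of the 24 leading genes the means of all 4 classes lay between those of the 2 sides, and in 11 the means were in order across all 6 classes. The genes without intermediate means were all of the Itih5 side: Thrsp, Acod1, Stab2, Top2a, Rasa4, Cyp1a1 and Cxcl9. Some missed by less than the spread between libraries. In the first class Thrsp was at 4.34 ± 2.25 CPM and Stab2 at 5.24 ± 1.18, against 4.35 and 5.64 on the Clca3a1 side. Cyp1a1 was at 24.3 ± 27.0 in the last class, against 21.0 on the Itih5 side. Top2a missed by more, at 41.6 ± 14.9 where B was above A against 24.6 ± 2.06 on the Itih5 side (SD, n = 3). These values describe the classes without a test, since the gate sums order them. Tgfbi was at 99.8 CPM on the Clca3a1 side, at 65.0, 38.8, 15.6 and 12 in the classes in the order given, and at 3.91 on the Itih5 side (means of 3 libraries). Kcnj8 was at 53.6, then 70.3, 87.5, 137 and 119, then 203 CPM. Cxcl9 was not ordered, with 1.28 CPM in cells with A above B and A of 1 or 2 against 9.36 on the Clca3a1 side.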

How the data were processed

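Gene expression was measured in 3 single-cell libraries, and the authors deposited for each a matrix of unnormalised UMI counts. The submitters' processing notes name mm10 as the build, with Cell Ranger 6.1.2 and bcl2fastq 2.2. No source used here states the annotation release or a doublet filter, and doublets were not removed. Gene positions are from GENCODE and promoters from RefSeq, both of the matching build GRCm38.

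The members, the gene lists and the tests were chosen with earlier results of these data known. Counts were summed per library and side over all cells, and over cells under and over the library's median of Fos UMIs per UMI of the lymphatic cells. The test was the quasi-likelihood F test of edgeR 4.0.16 (R 4.3.3), with TMM scaling and filterByExpr. Library entered the model as a block, because a pool and a droplet run were shared by the sides. The 10 gate and 5 filter genes were left out, and so was Fos within the Fos groups. The threshold was an adjusted p of 0.05 (Benjamini-Hochberg, all genes tested). Levels are CPM of all UMIs of a sum. The standard error is the absolute log2 difference over the square root of F. It is approximate, and the smallest p-values rest on a spread shared between genes. Sums held 7599837 to 15284954 UMIs. The test was also tried on simulated data, with means and dispersions taken from these sums. There 200 genes were changed, fewer than the 4171 called here.

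Named genes were the gate genes, 12 leading genes per side, the largest difference of each list in each direction under the same conditions, a fixed set of lymphatic genes, and the genes called for the interaction. Not all of these are described, and some list members outside the rule are named, chosen after their values were seen. The gene lists held 888 genes, of which 2 matched by an older symbol and 1 was not matched. Alternatives were the fit without the block, DESeq2 1.42.0, other scalings, no filter on low counts, each library left out, cells thinned to 5000 UMIs, equal cell numbers, stricter and looser sides, and cell filters. The filter on other types' and cycling genes was added after the data were seen.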

Additional observations from a re-analysis of the deposited data

Results flagged for a closer look

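The side difference (log2, Clca3a1 side over Itih5 side) differed between high-Fos and low-Fos cells in 11 genes by the interaction test. High-Fos minus low-Fos, it was 5.34 for Myh11, 4.86 for Actg2, 4.5 for Myl9, 4.49 for Acta2, 3.84 for Des, 3.8 for Sparcl1 and 3.62 for Rgs5. These 7 are genes of mural cells or stroma, and without the deepest 10% of barcodes none of them was called. It was 0.85 for Rnf122, 0.58 for Sbno2, 0.49 for Sema4c and 0.42 for Midn. Without the cells that held genes of other types or of the cell cycle, 9 of the 11 genes were tested, and Midn, Rnf122 and Sbno2 were called.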

How the results depend on the processing

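Over 16 alternatives, the count of genes called in all cells stayed within 1.5 times of 4171 except without the replicate block (2130) and with DESeq2 (2151). The same settings gave 1609 and 1314 in low-Fos cells and 1711 and 1577 in high-Fos cells. Leaving out 1 library gave 1860 to 2828 in low-Fos cells. For the interaction, the block and DESeq2 settings gave 0 and 0, no low-count filter 97, leaving out 1 library 2 to 50, stricter sides 7 and looser sides 18. No call of all cells changed sign among those shared with any alternative. The Clca3a1 side held 14.9% of lymphatic cells with stricter sides, 32.6% with looser sides and 23.4% when thinned before gating, and the Itih5 side 19.3% with stricter and 54.2% with looser sides.

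Of 99 named genes tested, 93 were called, and 71 of these calls held in every alternative. Without the deepest barcodes, Acta2 became 0.14, Myh11 0.55 and Sparcl1 0.51; Sparcl1 became 0.31 when thinned before gating. Myh11 became 0.30 with the lymphatic filter without other types' genes and 0.084 without cells with other types' or cycling genes. The cause was not tested. The replicate numbers name libraries that both sides share. Few UMIs limit genes near 1 CPM, such as Vegfc and Ackr4.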

Other observations

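The Fos groups themselves held similar shares of the sides: the Clca3a1 side was 27.8% ± 3.10 of low-Fos and 28.8% ± 3.74 of high-Fos lymphatic cells, and the Itih5 side 25.6% ± 3.88 and 24.6% ± 5.18 (SD, n = 3). Libraries differed in direction, with 48.1%, 51.7% and 52.6% of the Clca3a1 side and 51.2%, 50.7% and 44.5% of the Itih5 side among high-Fos cells.

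Of 14 genes known from the cytoskeleton of neurons and axons, 8 were higher on the Itih5 side and 3 on the Clca3a1 side, although Stmn2, of the same group, was a gate gene of the Clca3a1 side. The second count was 1 without library 3, with DESeq2 and without the block, and the list median moved from -0.32 to -0.66 without library 3. On the Clca3a1 side of library 3, UMIs of the neuronal markers Elavl4, Tubb3 and Snap25 numbered 29, 44 and 17, against 0 of each on its Itih5 side, and those of Uchl1 76 against 12. Their part in the counts was not tested. Nefl, the neurofilament light chain, was at a mean of 4.04 CPM on the Itih5 side and 0.409 on the Clca3a1 side, and Stmn1 differed by -1.51. The endothelin gene Edn1 was at 4.21 CPM on the Clca3a1 side and 0.758 on the Itih5 side. The Notch ligand gene Jag2 was at 8.59 CPM on the Itih5 side and 3.43 on the Clca3a1 side, and Notch4 at 7.31 and 3.16.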
